A study of Mus musculus with 12 samples.

Results

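The 10 genes described here encode matrix metalloproteinases (Mmp8, Mmp9, Mmp12, Mmp13, Mmp14 and Mmp19), their tissue inhibitors (Timp1, Timp2 and Timp3) and the membrane sheddase ADAM17 (Adam17). They were taken by symbol from the deposited count table, which lists 12339 genes, and all 10 were found and tested. The RNA was from mouse macrophages in 4 groups of 3 libraries, given by genotype (wild type, WT, or meKO) and by diet (chow, or a high-fat Western diet, HFD). From the title of the series, which is about protein kinase C epsilon in myeloid cells, meKO was taken to lack Prkce in those cells, and the labels do not name the driver of the deletion. All mice, the chow groups included, were injected with the same viral vector when they were 8 weeks old, so no group was free of the vector. Macrophages were elicited with thioglycolate and lavaged from the peritoneum 4 weeks later. The labels describe 8 mice per genotype, 4 of them on HFD, while 12 libraries were analysed here. The labels do not tie each library to its own animal, so the p-values measure the spread between these libraries.

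Matrix metalloproteinases are zinc-dependent endopeptidases that cut collagen, elastin, basement membrane proteins, chemokines and other extracellular proteins. Most are secreted as inactive precursors, and once active they are held in check by TIMPs, which block the catalytic cleft. ADAM17, the tumour necrosis factor converting enzyme, belongs to a related family, releases membrane-anchored proteins such as tumour necrosis factor from the cell surface, and is inhibited by TIMP3. Macrophages are a major source of these proteases in atherosclerotic plaques, where macrophage elastase (MMP12), the gelatinase MMP9 and the collagenases MMP8 and MMP13 have been studied for their part in matrix breakdown.

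Mmp13, Mmp12 and Mmp8 lie on the same strand of mouse chromosome 9, in that order, at 7272514-7283331, 7344381-7369499 and 7558456-7568485 (GRCm38, GENCODE M21). The other proteases are on chromosome 2 (Mmp9, 164940780-164955850), chromosome 14 (Mmp14, 54431612-54445364), chromosome 10 (Mmp19, 128790910-128800824) and chromosome 12 (Adam17, 21323509-21373632). Timp1 is on chromosome X at 20870166-20874735, Timp2 on chromosome 11 at 118301069-118355740 and Timp3 on chromosome 10 at 86300372-86349506. RefSeq promoters (GRCm38.p6) were matched for 8 of the 10 genes, and Mmp9 and Mmp19 had no entry in the table used. The 250 bases before each start were searched on both strands for 3 motifs: the AP-1 site TGANTCA, found in 6.75% of the 32851 promoters in that table, the NF-kB consensus, found in 7.25%, and the TATA box TATAAA, found in 12.4%. Only the promoters of Mmp12, at either of its 2 annotated starts, and of Mmp13 held a match. These are shown because Mmp12 and Mmp13 are the neighbouring members that were both higher on HFD; the matches are in capitals, and each sequence runs 5′ to 3′ on the plus strand and ends at the base before the start.
Mmp12 start 1, chr9:7344147-7344396: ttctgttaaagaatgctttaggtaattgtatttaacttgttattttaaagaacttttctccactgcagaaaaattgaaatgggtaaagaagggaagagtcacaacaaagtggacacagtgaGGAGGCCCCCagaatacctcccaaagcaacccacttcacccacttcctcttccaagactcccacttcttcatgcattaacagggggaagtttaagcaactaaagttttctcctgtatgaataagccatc
Mmp12 start 2, chr9:7347124-7347373: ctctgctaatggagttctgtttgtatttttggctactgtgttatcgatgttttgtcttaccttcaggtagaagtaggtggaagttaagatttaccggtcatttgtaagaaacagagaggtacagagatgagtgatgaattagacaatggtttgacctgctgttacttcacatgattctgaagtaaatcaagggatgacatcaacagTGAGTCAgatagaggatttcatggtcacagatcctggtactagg
Mmp13, chr9:7272264-7272513: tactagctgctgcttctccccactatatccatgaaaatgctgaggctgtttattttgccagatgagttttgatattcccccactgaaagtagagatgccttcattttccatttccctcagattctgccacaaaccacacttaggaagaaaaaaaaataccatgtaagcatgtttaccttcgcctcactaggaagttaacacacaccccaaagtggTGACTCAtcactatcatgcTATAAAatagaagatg
The first Mmp12 sequence held an NF-kB match, GGAGGCCCCC, from 129 to 120 bases before the start. The second held an AP-1 match, TGAGTCA, from 44 to 38 bases before its start. The Mmp13 promoter held an AP-1 match, TGACTCA, from 35 to 29 bases before the start and TATAAA from 16 to 11 bases before it. These matches describe letters in the windows, and binding of a factor was not measured.

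Counts per library summed to between 25844958 and 37282772 over the listed genes, and levels are given as CPM, counts scaled to library size with TMM factors. Prkce was at 2.01 to 4.44 CPM in the WT libraries and at 0.95 to 1.78 CPM in the meKO libraries, without overlap. These levels rest on 25 to 151 counts per library. In the edgeR test described below, the genotype difference of Prkce did not pass on chow, on HFD or averaged over diets (edgeR adjusted p = 0.0794, 0.989 and 0.0588). All 10 listed macrophage markers were present, with Adgre1 at 513 to 697 CPM. The macrophage marker Lyz2 stood apart in 1 library, meKO chow replicate 2, at 69.3 CPM, while the remaining meKO libraries held 16293 to 21310 CPM and the WT libraries 30482 to 53835 CPM. In WT chow replicates 1 and 2, log2 deviations from the gene's mean rose with transcript length (Spearman's rho across genes 0.60 and 0.64, genes not being independent), whereas rho lay between -0.43 and 0.12 in the other 10 libraries. In bulk RNA of this kind, fewer cells of a type and less RNA per cell cannot be told apart.

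Per kilobase of exon, Mmp12 and Timp2 were the most abundant transcripts of the set. Mmp12 averaged 744 CPM per kb over the 12 libraries (range 435 to 1344), and Timp2, a broadly acting inhibitor that also takes part in activating pro-MMP2 at the cell surface, averaged 379 CPM per kb (307 to 463). Their ranges overlapped each other and lay above those of all the other members. Adam17 came next at 47.9 CPM per kb (38.4 to 64.8), overlapping neither neighbour in the order. A run of 6 genes with overlapping neighbours followed: Mmp8 at 20.4, Mmp19 at 20.1, Mmp14 at 10.3, Mmp13 at 6.51, Mmp9 at 4.87 and Timp1 at 3.52 CPM per kb. Timp3, which unlike the other TIMPs binds to the extracellular matrix, was lowest at 0.481 CPM per kb (0.159 to 1.19), below every other member in every library.

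**Figure D1:**
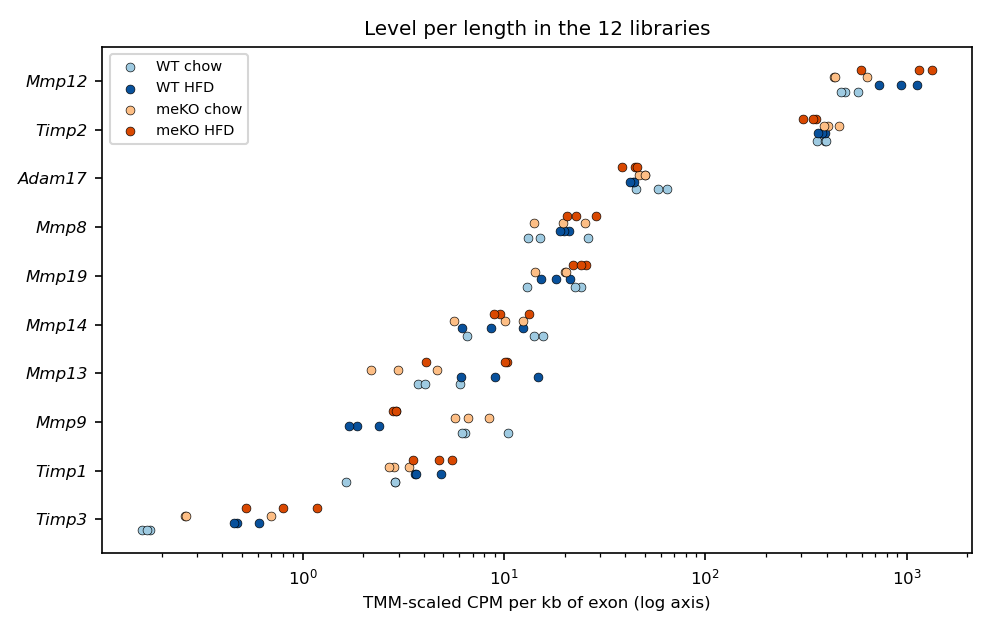
Level of each gene per kilobase of exon (TMM-scaled CPM per kb, logarithmic axis) in the 12 libraries, 1 point per library coloured by group. Mmp12 and Timp2 lie at 307 to 1344 CPM per kb, Adam17 at 38.4 to 64.8, and Timp3 at 0.159 to 1.19.

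The diet comparison asks how these genes differed between macrophages from mice on HFD and on chow. In WT, edgeR's quasi-likelihood test with Benjamini-Hochberg adjustment over all genes called 3 of the 10 members (adjusted p under 0.05): Mmp12 and Timp3 rose and Mmp9 fell. Over all genes, 21.3% were called in that comparison, 9.5% higher and 11.8% lower, so a share of 3 in 10 is close to the background. In meKO only Mmp9 was called, again lower on HFD, where 0.105% of all genes were called and 0.0729% were called lower. With the diet effect averaged over both genotypes, 6 of 10 were called, against 30.2% of all genes: Mmp12, Mmp13, Timp1 and Timp3 rose (14.9% of all genes did), and Mmp9 and Adam17 fell (15.3% did). The median log2 fold change of the 10 members was 0.06 in WT, beside -0.03 over all genes, and 0.34 in meKO, beside -0.01. The members spread widely around those medians, from -1.96 for Mmp9 to 1.62 for Timp3 in WT.

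**Figure D2:**
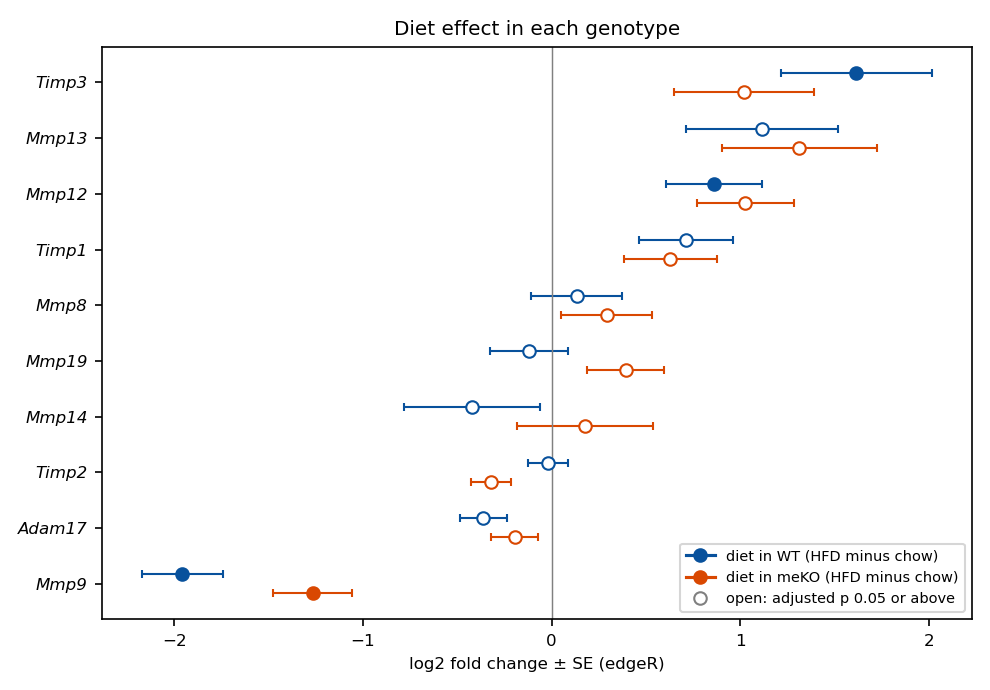
Log2 fold change (HFD minus chow) ± SE from edgeR for each gene in WT and in meKO, with filled points for an adjusted p under 0.05. Mmp9 lies at -1.96 in WT and -1.27 in meKO, while Mmp12, Mmp13, Timp1 and Timp3 lie between 0.63 and 1.62 in both genotypes.

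Mmp9, which encodes gelatinase B, a protease of denatured collagen and basement membrane type IV collagen, fell on HFD in both genotypes. Its level was 33.4, 20.4 and 19.6 CPM in the 3 WT chow libraries and 5.92, 7.61 and 5.41 CPM in the 3 WT HFD libraries. In meKO it was 18.2, 21.0 and 26.7 CPM on chow and 9.21, 8.89 and 9.25 CPM on HFD. Every HFD library was thus below every chow library, whichever the genotype, and the meKO HFD libraries were close to one another. Means were 24.5 ± 7.71 and 6.32 ± 1.15 CPM in WT (SD, n = 3) and 21.9 ± 4.35 and 9.12 ± 0.198 CPM in meKO. The fall in WT was 3.88-fold (log2 fold change -1.96 ± 0.21 SE, edgeR adjusted p = 6.78e-04). That call held under all 19 alternatives, with log2 fold changes of -2.11 to -1.65.

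The meKO fall of Mmp9 was 2.40-fold, or -1.27 ± 0.21 on the log2 scale (edgeR adjusted p = 0.0367). It passed in 11 of 19 alternatives. It was lost with unscaled library totals (adjusted p = 0.0505), with the meKO libraries fitted alone (0.0742), and without any 1 of WT HFD replicates 1 or 3, meKO chow replicates 2 or 3, or meKO HFD replicates 2 or 3, where edgeR gave adjusted p-values from 0.0524 to 0.203. Averaged over genotypes, Mmp9 changed by -1.61 ± 0.15 on the log2 scale (edgeR adjusted p = 1.36e-04). Mmp9 is also a granule gene of neutrophils, and of the 12 listed neutrophil markers 7 were present, while the defining Ly6g, Mpo, Elane, Camp and Ngp were not among the listed genes. The summed level of those 7, most of it from Csf3r, was 125 to 138 CPM in WT chow, 95.6 to 101 in WT HFD, 124 to 145 in meKO chow and 118 to 127 in meKO HFD. Among them S100a9 was low throughout, at 0.196 to 0.963 CPM in WT and 1.87 to 4.69 CPM in meKO. It was the only 1 of the 7 called for genotype on chow or on HFD, where 0.081% of all genes were called on each. Its log2 difference was 3.13 on chow and 2.15 on HFD, higher in meKO (edgeR adjusted p = 0.00348 and 0.0229). Averaged over diets 3 of the 7 were called higher in meKO, and 0.17% of all genes were called. Of the 7, edgeR called 5 for diet in WT, beside 21.3% of all genes: S100a8 (log2 fold change 0.76), S100a9 (1.48) and Lcn2 (1.91) rose, and Csf3r (-0.60) and Retnlg (-0.96) fell. The part of these markers in the Mmp9 result was not tested.

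**Figure D3:**
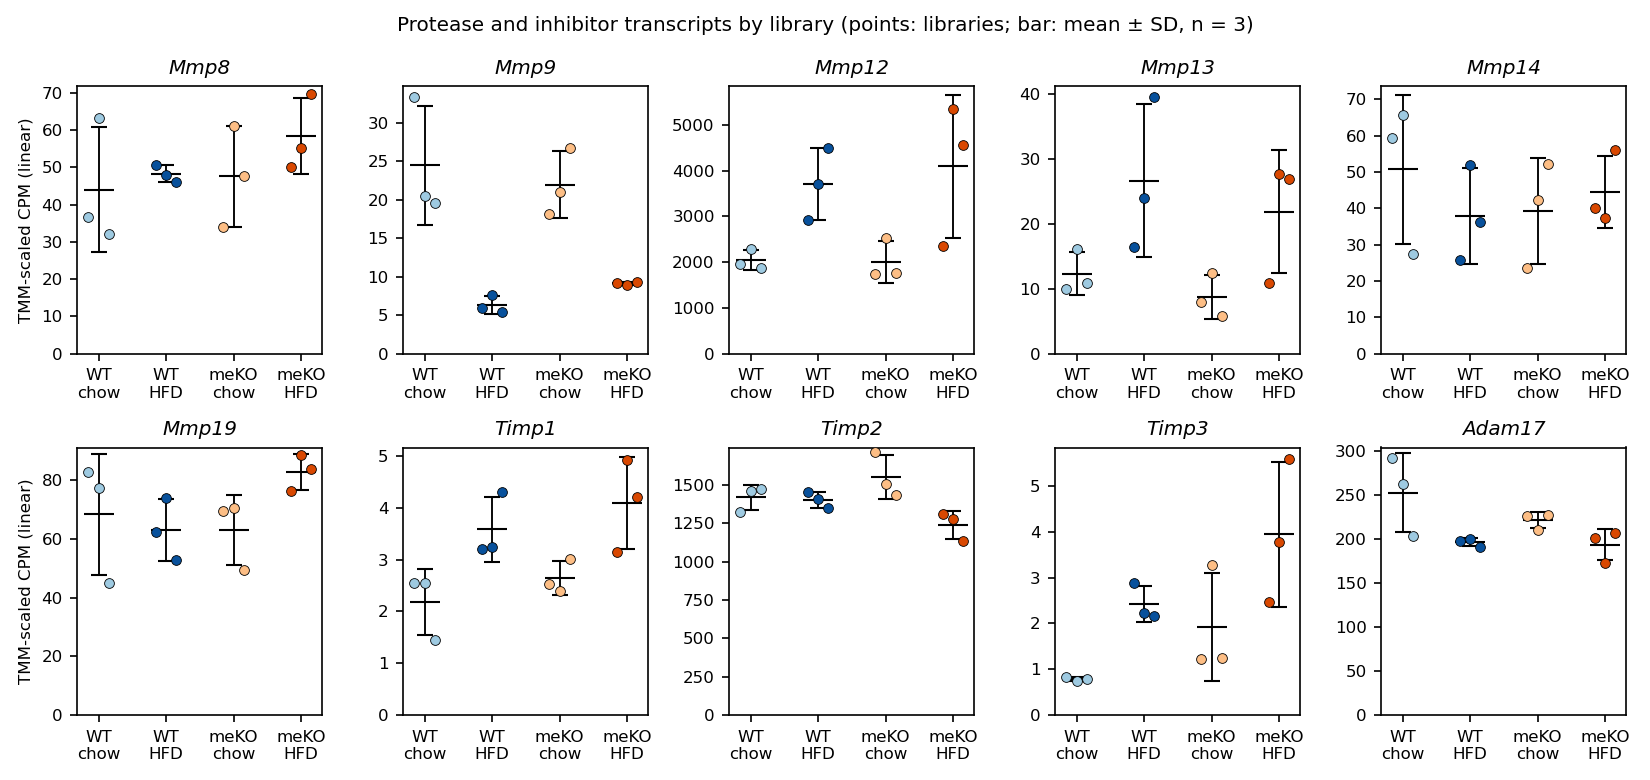
TMM-scaled CPM of the 10 genes on linear axes from 0, with 1 point per library and bars for the mean ± SD of the 3 libraries of each group. Mmp9 is at 18.2 to 33.4 CPM in all chow libraries and at 5.41 to 9.25 CPM in all HFD libraries, while Timp1 is higher in every HFD library than in every chow library.

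Mmp12, macrophage elastase, was the most abundant member and moved the other way. Its level was 1959, 2291 and 1878 CPM in WT chow and 2915, 3718 and 4496 CPM in WT HFD. The meKO levels of Mmp12 were 1734, 2536 and 1751 CPM on chow and 2353, 5353 and 4571 CPM on HFD. The WT diets did not overlap, whereas in meKO the lowest HFD library, replicate 1, was below the highest chow library, replicate 2. The WT rise was 1.82-fold, from 2043 ± 219 to 3709 ± 790 CPM (SD, n = 3), or 0.86 ± 0.25 on the log2 scale (edgeR adjusted p = 0.0324). It passed in 13 of 19 alternatives and was lost on leaving out any 1 of the 6 WT libraries (edgeR adjusted p = 0.0528 to 0.136). In meKO the means were 2007 ± 459 and 4092 ± 1556 CPM, and the difference of 1.03 ± 0.26 on the log2 scale did not pass (edgeR adjusted p = 0.140). Without meKO HFD replicate 1 that difference was 1.31 (edgeR adjusted p = 0.0107), and DESeq2 (0.00829) and voom (0.0240) also called it. Averaged over genotypes, Mmp12 rose by 0.94 ± 0.18 on the log2 scale (edgeR adjusted p = 0.00585), which held in all 18 alternatives. An exon of Mmp12 shares 157 bases with Mmp1b on the other strand, which is not among the listed genes, and the strand setting of the counts is not known.

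Mmp13, collagenase-3, which cuts fibrillar collagens, was also higher in mean on HFD in both genotypes, at a much lower level. Its level was 9.99, 16.2 and 10.8 CPM in WT chow and 16.4, 24.0 and 39.6 CPM in WT HFD. Mmp13 in meKO was at 7.97, 12.4 and 5.84 CPM on chow and 10.9, 27.7 and 27.0 CPM on HFD. The WT diets were separated by only a small gap, and in meKO the lowest HFD library, again replicate 1, was within the chow range. Neither genotype passed alone: the log2 fold change was 1.11 ± 0.40 for WT and 1.31 ± 0.41 for meKO (edgeR adjusted p = 0.0662 and 0.213). The WT difference passed in voom (0.0354), with the WT libraries fitted alone (0.0382) and without meKO HFD replicate 1 (edgeR adjusted p = 0.0328). Averaged over genotypes Mmp13 rose by 1.21 ± 0.29 on the log2 scale (edgeR adjusted p = 0.0126), in all 18 alternatives as well.

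The remaining proteases, Mmp8, Mmp14 and Mmp19, did not pass in edgeR in any comparison. Mmp8, neutrophil collagenase, lay at 32.1 to 63.3 CPM in WT chow, 46.1 to 50.7 CPM in WT HFD, 34.1 to 61.2 CPM in meKO chow and 50.2 to 69.7 CPM in meKO HFD, with overlap between the diets in both genotypes. Mmp14, the membrane-anchored collagenase MT1-MMP that activates pro-MMP2, varied about as much within groups as between them, at 27.4 to 65.6, 25.8 to 51.8, 23.5 to 52.3 and 37.4 to 55.9 CPM in the same order of groups. Its diet differences were -0.42 ± 0.36 in WT and 0.18 ± 0.36 in meKO on the log2 scale (edgeR adjusted p = 0.403 and 0.830), although voom called the first (-0.74, voom adjusted p = 0.0387). Mmp19, a secreted protease of basement membrane proteins, was at 82.9, 77.6 and 44.9 CPM in WT chow and at 62.5, 73.9 and 52.8 CPM in WT HFD. In meKO Mmp19 was at 69.5, 70.5 and 49.4 CPM on chow and at 76.4, 88.6 and 83.8 CPM on HFD. The meKO HFD libraries lay above all meKO chow libraries, but the difference of 0.39 ± 0.21 on the log2 scale did not pass (edgeR adjusted p = 0.357). Of the 3.453 kb of Mmp19 exon, 789 bases are shared with Tmem198b on the opposite strand. Without a known strand setting, reads within those shared bases cannot be assigned to either gene.

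Among the inhibitors, Timp3 and Timp1 were higher on HFD and Timp2 was not. Timp3 was at 0.820, 0.751 and 0.793 CPM in WT chow and at 2.88, 2.24 and 2.17 CPM in WT HFD. Timp3 in meKO was at 1.23, 3.28 and 1.24 CPM on chow and at 2.46, 3.78 and 5.60 CPM on HFD. The 3 WT chow libraries were the lowest of the 12, and meKO chow replicate 2, the library with low Lyz2, exceeded the lowest meKO HFD library. These levels rest on 23 to 141 counts per library. The WT rise was 3.07-fold, from 0.788 ± 0.0349 to 2.43 ± 0.393 CPM (SD, n = 3), or 1.62 ± 0.40 on the log2 scale (edgeR adjusted p = 0.0207). It passed in 15 of 19 alternatives and was lost without WT chow replicate 1 or 2 or WT HFD replicate 1 or 3 (edgeR adjusted p = 0.0618 to 0.0898). In meKO the difference was 1.02 ± 0.37 on the log2 scale (edgeR adjusted p = 0.252), and averaged over genotypes Timp3 rose by 1.32 ± 0.27 (edgeR adjusted p = 0.00755), in all 18 alternatives.

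Timp3 is known in fibroblasts and mesothelial cells, so its level was set beside 12 markers of those cells, all of them present. Their summed level was 53.3 to 94.2 CPM in WT chow, 97.6 to 143 in WT HFD, 53.3 to 98.2 in meKO chow and 115 to 146 in meKO HFD, so that in both genotypes the sum was higher on HFD in every library. Of the 12, 3 rose on HFD in WT and 5 with the genotypes averaged, and none fell. Over all genes 9.5% rose in WT and 14.9% with the genotypes averaged. The library with the highest Timp3 on chow, meKO chow replicate 2, had a marker sum of 90.8 CPM, between the other 2 meKO chow libraries. The part of these markers in the Timp3 result was not tested.

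**Figure D4:**
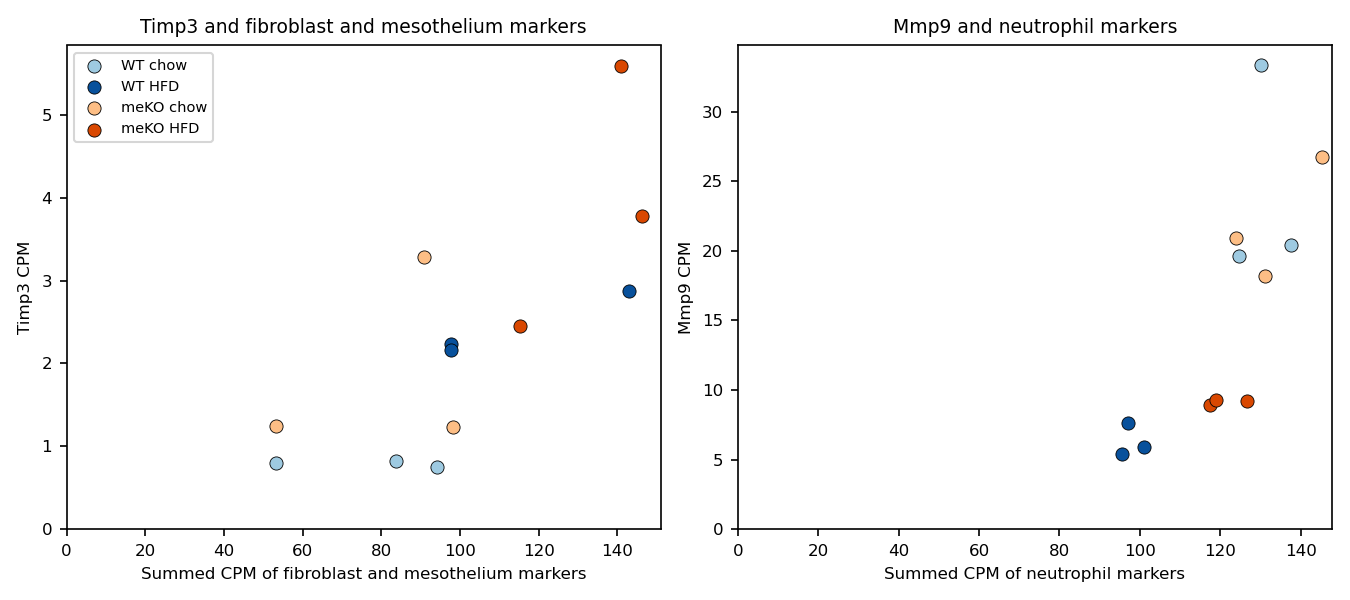
Left, Timp3 CPM against the summed CPM of 12 fibroblast and mesothelium markers; right, Mmp9 CPM against the summed CPM of 7 neutrophil markers, with 1 point per library coloured by group. The fibroblast and mesothelium sum is 53.3 to 98.2 CPM in the chow libraries and 97.6 to 146 CPM in the HFD libraries, and the neutrophil sum is lowest, at 95.6 to 101 CPM, in WT HFD.

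Timp1, an inducible secreted inhibitor of most metalloproteinases with weak activity against MT1-MMP and MMP19, was low but ordered by diet. It was at 2.55, 2.55 and 1.45 CPM in WT chow and at 3.20, 3.24 and 4.30 CPM in WT HFD. In meKO it was at 2.52, 2.39 and 3.01 CPM on chow and at 3.14, 4.92 and 4.21 CPM on HFD. All 6 HFD libraries lay above all 6 chow libraries, from 44 to 143 counts per library. Mmp9 was the other member whose 6 HFD and 6 chow libraries did not overlap; 5.76% of all genes had such a separation. Alone, the WT difference of 0.71 ± 0.25 on the log2 scale (edgeR adjusted p = 0.0560) and the meKO difference of 0.63 ± 0.25 (edgeR adjusted p = 0.271) did not pass. The WT difference passed in 3 of 19 alternatives: in DESeq2 (0.0280), in voom (0.0462) and without meKO HFD replicate 1 (edgeR adjusted p = 0.0449). Averaged over genotypes Timp1 rose by 0.67 ± 0.18 (edgeR adjusted p = 0.0154). Timp1 has the shortest exon total of the set, 0.888 kb, and with a correction for transcript length and GC content that difference was 0.27 and no longer passed (edgeR adjusted p = 0.331). With that correction the WT difference was 0.19 (edgeR adjusted p = 0.679).

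Timp2 stayed within a narrow band of 1137 to 1716 CPM. In WT it was at 1325, 1460 and 1475 CPM on chow and at 1457, 1406 and 1348 CPM on HFD. In meKO it was at 1716, 1509 and 1435 CPM on chow and at 1309.9, 1278 and 1137 CPM on HFD. The WT diets overlapped, whereas the meKO HFD libraries were below all meKO chow libraries. The WT log2 fold change was -0.02 ± 0.11 and that in meKO was -0.32 ± 0.11 (edgeR adjusted p = 0.921 and 0.217). In voom the meKO difference passed, at -0.40 (voom adjusted p = 0.0393). Averaged over genotypes Timp2 differed by -0.17 ± 0.07 (edgeR adjusted p = 0.0969), which passed with library totals (0.0284) and in voom (0.0254).

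Adam17 was at 292, 263 and 204 CPM in WT chow and at 198, 200.4 and 191 CPM in WT HFD. Adam17 in meKO was at 226, 211 and 227 CPM on chow and at 201, 173 and 207 CPM on HFD. Chow and HFD did not overlap within either genotype, although WT chow replicate 3 was close to the WT HFD libraries. Neither genotype passed alone, with -0.36 ± 0.12 for WT and -0.19 ± 0.12 for meKO on the log2 scale (edgeR adjusted p = 0.0522 and 0.437). The WT difference passed in 5 of 19 alternatives: DESeq2 (0.0325), voom (6.45e-04), library totals (0.0378), and edgeR with WT chow replicate 3 (0.00408) or meKO HFD replicate 2 (0.0424) left out. Averaged over genotypes Adam17 fell by 0.28 ± 0.09 on the log2 scale (edgeR adjusted p = 0.0310). That call held in 10 of 18 alternatives. It was lost with the length and GC correction (edgeR adjusted p = 0.0507) and on leaving out any 1 of 7 libraries: WT chow replicates 1 and 2, WT HFD replicates 1 and 3, meKO chow replicates 1 and 3, and meKO HFD replicate 2. Its exons share 311 bases with Iah1 on the opposite strand.

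Counting members whose 3 HFD and 3 chow libraries did not overlap, whatever the test, WT had 6 of 10 (Mmp12, Mmp13, Timp1 and Timp3 higher, Mmp9 and Adam17 lower), where 39.3% of all genes did not overlap. In meKO 5 of 10 did not overlap (Mmp19 and Timp1 higher, Mmp9, Timp2 and Adam17 lower), where 19.7% of all genes did not. Mmp9, Timp1 and Adam17 were on both lists, each in the same direction. Whether the diet effect differed between genotypes was tested with an interaction term, and 0 of 10 members passed in edgeR, DESeq2 or voom, with 0.0162% of all genes called by edgeR. Mmp9 alone of the members had an unadjusted p under 0.05 there, as did 756 of all 12339 genes. Its difference between the log2 diet effects was 0.69 ± 0.30 (edgeR adjusted p = 0.791). For Mmp19 that difference was 0.51 ± 0.29 and for Timp2 it was -0.31 ± 0.15 (edgeR adjusted p = 0.797 for each). Calls in WT and not in meKO, as for Mmp12 and Timp3, are therefore not shown to be a difference between the genotypes.

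The genotype comparison asks how meKO differed from WT on the same diet. In edgeR 0 of 10 members were called on chow and 0 of 10 on HFD, with 0.081% of all genes called on each diet, and 0 of 10 averaged over diets, with 0.17% called. At an unadjusted p under 0.05 there was 1 member on chow (Timp3), 1 on HFD (Mmp9) and 1 averaged over diets (Timp3). Over all 12339 genes, 2447 had such a p on chow, 563 on HFD and 2183 averaged over diets. DESeq2 called Timp3 on chow and averaged over diets and no member on HFD, while voom called Adam17 on chow, Timp3 averaged over diets and no member on HFD. Over all 12339 genes, DESeq2 called 591 on chow, 53 on HFD and 366 averaged over diets. The voom counts over all genes were 4047, 128 and 3835. The median log2 fold change of the members was -0.07 on chow and 0.21 on HFD, beside -0.0012 and 0.02 over all genes.

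With all libraries, Timp3 had the largest genotype difference of the set on both diets. On chow all 3 meKO libraries were above all 3 WT libraries, with means of 1.92 ± 1.18 and 0.788 ± 0.0349 CPM and a log2 difference of 1.29 ± 0.40 (edgeR adjusted p = 0.132; DESeq2 adjusted p = 0.0383). Without meKO chow replicate 2 the difference was 0.66 (edgeR adjusted p = 0.436), smaller in size than that of Mmp13 (-0.82). On HFD it was 0.69 ± 0.37 (edgeR adjusted p = 0.999), with overlap of the groups, and without meKO HFD replicate 3 it was 0.35. Averaged over diets it was 0.99 ± 0.27 (edgeR adjusted p = 0.149; DESeq2 0.0299; voom 0.0139). Timp3 was the 1 member of 10 whose genotypes did not overlap on chow, where 17.1% of all genes did not overlap.

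On HFD 3 of 10 members had genotypes that did not overlap, against 10.3% of all genes: Mmp9 and Mmp19 were higher in meKO and Timp2 was lower. Mmp9 was at 8.89 to 9.25 CPM in meKO HFD and at 5.41 to 7.61 CPM in WT HFD, and the log2 difference of 0.53 ± 0.21 missed the threshold (edgeR adjusted p = 0.999). In chow libraries the Mmp9 genotypes overlapped. Mmp13 was nominally lower in meKO on both diets, with log2 differences of -0.49 on chow and -0.29 on HFD (edgeR adjusted p = 0.499 and 0.999). On HFD the sign of the Mmp13 difference turned in voom (0.12), without WT HFD replicate 3 (0.10) and without meKO HFD replicate 1 (0.03).

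Of 18 further metalloproteinase and TIMP genes only Mmp2, Mmp23, Mmp27 and Mmp28 were among the listed genes, and edgeR called 0 of the 4 in WT or in meKO. At an unadjusted p under 0.05 there was 1 in each genotype, Mmp23, and voom called 2 in WT while DESeq2 called 0. Mmp23, which was chosen for naming after its values were seen, passed with the genotypes averaged, with a log2 fold change of 1.19. Of 22 other ADAM and ADAMTS proteases 10 were present. In WT edgeR and DESeq2 each called 1 of them and voom called 5. The gene called by edgeR was Adam19, a sheddase of neuregulins, which fell by 0.80 ± 0.21 on the log2 scale on HFD (edgeR adjusted p = 0.0239). Adam19 was also the 1 gene of that list called lower in meKO with the diets averaged, at -0.98, where 0.17% of all genes were called. In meKO edgeR called 0 of the 10 for diet, 1 had an unadjusted p under 0.05, and DESeq2 and voom each called 1, in each case Adam12, named after its values were seen. Adam12 had the highest log2 fold change of the list there, 1.75, and rose in edgeR with the genotypes averaged, at 1.23.

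Of 23 genes present that activate, inhibit, bind or take up the proteases, 7 rose and 1 fell in WT on HFD. Over all genes 9.5% rose and 11.8% fell there. In that comparison 11 of the 23 had a log2 fold change above 0, and the median of the 23 was -0.01, beside -0.03 over all genes. In edgeR 0 passed in meKO, where 6 had an unadjusted p under 0.05, DESeq2 called 1 and voom called 2. Of all 12339 genes, 13 passed there in edgeR, 1962 had such a p, DESeq2 called 227 and voom called 398. Lcn2, a lipocalin, rose from 0.317 ± 0.179 to 1.20 ± 0.268 CPM (log2 fold change 1.91 ± 0.38, edgeR adjusted p = 0.0115). Lcn2 is also on the neutrophil marker list. Plaur, the urokinase receptor, rose from 180 ± 15.6 to 248 ± 18.7 CPM (0.47 ± 0.12, edgeR adjusted p = 0.0205). Cd9, a tetraspanin, rose by 0.68 ± 0.13 on the log2 scale and Bsg, the metalloproteinase inducer basigin, by 0.51 ± 0.12 (edgeR adjusted p = 0.0107 and 0.0179). The gene that fell was Furin, the convertase that removes the prodomain of MMP14 and ADAM17, from 93.4 ± 14.6 to 58.8 ± 7.002 CPM (-0.67 ± 0.17, edgeR adjusted p = 0.0217).

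Among 26 matrix substrates and matrix-linked proteins present, 3 rose and 1 fell in WT on HFD, beside 9.5% and 11.8% of all genes. In meKO 0 passed in edgeR, where 0.105% of all genes did. There 12 had an unadjusted p under 0.05, as did 1962 of all 12339 genes. DESeq2 called 2 and voom called 6, beside 227 and 398 of all genes. Dcn, the collagen-binding proteoglycan decorin, rose from 24.0 ± 3.82 to 43.6 ± 9.64 CPM (log2 fold change 0.86 ± 0.19, edgeR adjusted p = 0.0159), and it is also on the fibroblast marker list. Lgals3, galectin-3, and Spp1, osteopontin, both cut by metalloproteinases, rose by 0.41 ± 0.12 and 0.66 ± 0.22 on the log2 scale (edgeR adjusted p = 0.0350 and 0.0448). Tgfbi, a secreted adhesion protein, fell from 109 ± 6.62 to 57.7 ± 11.5 CPM (-0.92 ± 0.19, edgeR adjusted p = 0.0127).

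Of the list of surface proteins that ADAM17 is reported to release, 25 were present, and other proteases also cut some of them. In WT on HFD 3 of the 25 rose and 8 fell, beside 9.5% and 11.8% of all genes. In meKO 1 fell, beside 0.0729% of all genes. Cd163, the haemoglobin scavenger receptor, was the gene that fell in both genotypes, from 17.9 ± 2.12 to 5.88 ± 1.22 CPM in WT (log2 fold change -1.61 ± 0.23, edgeR adjusted p = 0.00349) and from 16.8 ± 4.90 to 5.78 ± 1.39 CPM in meKO (-1.53 ± 0.23, edgeR adjusted p = 0.0180). The sorting receptor Sorl1 fell in WT by 1.56 ± 0.24 on the log2 scale (edgeR adjusted p = 0.00541). Cd74, the class II invariant chain, and Mertk, a receptor for apoptotic cells, changed by -1.24 ± 0.22 and -0.65 ± 0.15 (edgeR adjusted p = 0.00803 and 0.0183). Trem2, a lipid-sensing receptor, rose by 0.56 ± 0.14 (edgeR adjusted p = 0.0218).

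Of 19 AP-1 and NF-kB genes present, the families whose motifs were searched in the promoters, 2 rose and 3 fell in WT on HFD. Over all genes 9.5% rose and 11.8% fell there. Fos rose from 47.5 ± 11.04 to 86.4 ± 10.5 CPM (log2 fold change 0.86 ± 0.19, edgeR adjusted p = 0.0159) and Junb from 82.0 ± 5.85 to 125 ± 7.16 CPM (0.60 ± 0.12, edgeR adjusted p = 0.0114). Maf, Nfkb1 and Jun changed by -0.79 ± 0.11, -0.51 ± 0.14 and -0.38 ± 0.12 on the log2 scale (edgeR adjusted p = 0.00287, 0.0278 and 0.0345). In meKO 0 of the 19 passed in edgeR, 7 had an unadjusted p under 0.05, and DESeq2 and voom each called 2. Of all 12339 genes, 13 passed there in edgeR, 1962 had such a p, DESeq2 called 227 and voom called 398. The WT calls of Cd163, Sorl1, Cd74 and Maf held in every alternative. Those of 8 others, Adam19, Cd9, Furin, Plaur, Lgals3, Spp1, Fos and Jun, were lost with the length and GC correction. These 8 passed in 10 (Spp1) to 16 (Cd9) of 19 alternatives. The remaining named WT calls were each lost on leaving out a WT library. Of 19 alternatives Nfkb1 passed in 14, Bsg and Trem2 in 15, Mertk, Dcn and Tgfbi in 16, and Junb in 18. Lcn2 passed in 17 of 18. The meKO call of Cd163 passed in 15 of 19. For genotype, edgeR called 0 of the 106 genes of these lists on chow and 0 on HFD. On chow 26 had an unadjusted p under 0.05, DESeq2 called 9 and voom called 33. Over all 12339 genes these counts were 2447, 591 and 4047. On HFD they were 8, 0 and 4 for the lists, beside 563, 53 and 128 over all genes.

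The genes whose pattern over the 12 libraries was most like Mmp9, Mmp12 and Timp3, the members called within a genotype, were found by Pearson's r of log2(CPM + 0.1), as a description of libraries that share groups. For Mmp9 these were Mrgpre (r = 0.958) and P3h3 (0.933), for Mmp12 Tm4sf1 (0.952) and Cryab (0.938), and for Timp3 P4hb (0.974) and Acta2 (0.954). Mrgpre lay at 7.74 to 11.7 CPM on chow and 3.13 to 6.59 CPM on HFD. Acta2, smooth muscle actin, lay at 1.16 to 4.02 CPM on chow and 2.86 to 5.68 CPM on HFD.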

How the data were processed

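Macrophage RNA was sequenced from TruSeq libraries of Trizol-extracted RNA, per the labels' protocols. The authors deposited whole-number counts per gene and library. The submitters' processing notes name mm10 and DESeq2; the aligner, counter and strand setting are not given in the sources used here. The 12339 listed genes each reached at least 0.501 CPM in 6 libraries, so a gene expressed in fewer could be missing, and 186 without a symbol held 0.440% of the counts.

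Counts were fitted with edgeR 4.0.16 (R 4.3.3; TMM, filterByExpr, which kept all genes, robust quasi-likelihood F test, two-sided) in 1 model with 4 group means, and a call is an adjusted p under 0.05 (Benjamini-Hochberg, over all genes). Exact permutation of 3 against 3 libraries cannot go below p = 0.1, so genes rest on this model. The fitting script was also tested on simulated data. Replicate numbers follow accession order. The members and gene lists were chosen with earlier results of these data known. Named genes were the members, Prkce and Lyz2, up to 6 called genes per list and single-diet or single-genotype comparison by smallest p, and the 2 genes most like each called member; a few items the rule names are not reported here. Alternatives were median-of-ratios scaling, unscaled totals, a minimum of 10 counts, DESeq2 1.42.0, voom with quality weights (limma 3.58.1), a smooth correction for length and GC content (mgcv 1.9.3, for the 93.5% of genes with both values), the compared groups alone, and leaving out each of 12 libraries; omitting the filter on low counts left the fit as it was and is not counted among them. Exon lengths came from GENCODE M21 (GRCm38).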

Additional observations from a re-analysis of the deposited data

How the results depend on the processing

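No paired analysis was possible because replicate numbers only follow accession order. For Timp1 and Timp3, levels of 44 to 143 and 23 to 141 counts add counting error. The cause of the changes below was not tested. Counts of members called were 0, 0, 3, 1, 0, 0 and 6 for genotype on chow, genotype on HFD, diet in WT, diet in meKO, interaction, genotype averaged and diet averaged. With DESeq2 they were 1 for genotype on chow, 5 for diet in WT, 2 for diet in meKO and 1 for genotype averaged. voom gave 1, 7, 3 and 1 for the same comparisons. Diet in meKO had 0 with library totals and 0 with the compared groups alone. Leaving out 1 library gave members counts of 0 to 1 in the chow genotype comparison, 0 in that on HFD, 1 to 5 for diet in WT, 0 to 2 for diet in meKO, 0 for interaction, 0 for genotype averaged and 5 to 6 for diet averaged. The 1 in diet in WT came without WT chow replicate 1 or 2 or WT HFD replicate 1 or 3, and the 5 without meKO HFD replicate 1.

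Over all genes, genotype on chow had 10 calls, 2 with library totals, 591 in DESeq2, 4047 in voom, 4 with the length and GC correction, 5 with the groups alone, and 2 to 2543 without 1 library. Genotype on HFD had 10, 53 in DESeq2, 128 in voom, 34 with the groups alone, and 3 to 16 without 1 library. Diet in WT had 2634, 6411 in voom, 1623 with the correction, and 96 to 4921 without 1 library, lowest without WT HFD replicate 3 and highest without WT chow replicate 3. Diet in meKO had 13, 227 in DESeq2, 398 in voom, 39 with the correction, 1 with the groups alone, and 1 to 135 without 1 library. The interaction had 2, 1 with at least 10 counts in every library, 15 in DESeq2, 295 in voom, 4 with the correction, and 1 to 56 without 1 library. Genotype averaged had 21, 366 in DESeq2, 3835 in voom, and 8 to 1400 without 1 library. Diet averaged had 3721, 6298 in voom, and 1957 to 5326 without 1 library. The share of diet calls that were higher was 44.5% in WT and 49.3% averaged, and 31.3% and 38.1% with library totals. For genotype on chow 40% of the 10 calls were higher, 75% of 4 with the correction and 100% of 2 with library totals. For the interaction both calls were higher, as were 66.7% with library totals and 50% with the correction.

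Differences that did not pass in edgeR turned sign as follows, on the log2 scale. Mmp8, diet in WT, was -0.14 with the correction and -0.037 to 0.50 without 1 library. Mmp19, diet in WT, was -0.34 to 0.063 without 1 library. Timp2, diet in WT, was 0.037 in voom, 0.13 with the correction and -0.049 to 0.021 without 1 library. Mmp14 was -0.095 to 0.44 in meKO and -0.27 to 0.0071 averaged, without 1 library. Mmp13, genotype on HFD, was 0.12 in voom and -0.55 to 0.10 without 1 library. For Lcn2 a minimum of 10 counts in every library gave no value.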

Other observations

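Ratios of protease to inhibitor transcript per kilobase were computed in each library as a description, without a test. Mmp9 per Timp1 was 2.24 to 3.77 in WT chow, 0.352 to 0.658 in WT HFD, 2.02 to 2.49 in meKO chow and 0.505 to 0.820 in meKO HFD. Mmp9 transcript thus exceeded Timp1 transcript per length in all 6 chow libraries and was below it in all 6 HFD libraries. Because Mmp9 was lower and Timp1 higher in every HFD library, the diets could not overlap in this ratio. The ratios were not corrected for the length trend of the libraries. With the length and GC correction the averaged Timp1 rise was 0.27 on the log2 scale (edgeR adjusted p = 0.331). Mmp12 per Timp2 was 0.941 to 1.56 on chow and 1.67 to 3.90 on HFD, also without overlap. Mmp12 per Timp1, whose genes were both higher on HFD, overlapped between the diets at 130 to 288 on chow and 167 to 256 on HFD. Mmp14 per Timp2, the pair that acts on pro-MMP2, was 0.0122 to 0.0399 on chow and 0.0157 to 0.0436 on HFD and overlapped as well.

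Among cell type lists not yet described, all 9 markers of resident large peritoneal macrophages were present, with summed levels of 296 to 894 CPM in WT chow, 1116 to 1804 in WT HFD, 548 to 1102 in meKO chow and 677 to 1622 in meKO HFD. Most of that sum was Cd5l, at 155 to 506 CPM in WT chow and 911 to 1486 CPM in WT HFD. In WT edgeR called 1 of the 9, Alox15, which fell on HFD (log2 fold change -1.91), and 4 of the 9 had a log2 fold change above 0. With the genotypes averaged, 2 of the 9 rose, Gata6 (0.74) and Cd5l (1.24), and Alox15 fell (-1.30). On the same average, all 6 B cell markers present fell on HFD, as did 3 of 8 dendritic cell markers and 1 of 3 eosinophil markers. Over all genes 14.9% rose and 15.3% fell on that average. Of 9 T and NK cell markers 1 rose and 1 fell. The 8 mast cell markers summed to 58.2 to 357 CPM, with both extremes among the meKO chow libraries. Their part in the protease results was not tested.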
